A study of Mus musculus with 48 samples.

Results

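The hippocampus of 5xFAD mice fed PLX5622 was set against the cortex of mice of the same genotype and treatment, with 4 RNA-seq libraries from each region among the 48 libraries of the series. Both groups carried the 5xFAD transgenes, which include mutant human APP under the neuronal Thy1 promoter, on the C57BL/6 strain, and both received PLX5622, an inhibitor of the CSF1 receptor, at 1200 ppm in chow between 1.5 and 7 months of age (labelled 5xFAD + PLX5622). The same regional difference was taken in untreated mice without the transgenes (labelled Wild-type), in mice without the transgenes on the drug (labelled PLX5622, here called treated wild type) and in untreated 5xFAD mice, with 4 libraries per region in each. Of 16014 genes in the deposited table, 15975 had at least 0.2 RPKM (reads per kilobase of transcript, scaled to the depth of the library) in 4 or more libraries, and each of these was tested on log2(RPKM + 0.1) with limma, a linear model with a spread shared across genes. Libraries are named by region and by the number in their title. The study's methods count replicates as biologically independent, and the regions were dissected from the same hemispheres. The labels name no animals, and whether a number marks the same mouse in both regions is not given in the sources used here.

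Microglia, the resident macrophages of brain tissue, need signalling through the CSF1 receptor to survive, and its blockade removes most of them. In undisturbed tissue they carry homeostatic genes such as P2ry12, Tmem119 and Cx3cr1, and beside amyloid plaques they take up a plaque-induced state marked by Cst7, Itgax and Clec7a. Hippocampus and cortex also differ in neurons and myelin in any mouse, with granule cells in the dentate gyrus and pyramidal cells in the CA fields, so a difference between treated regions can come from myeloid genes left after treatment or from ordinary regional genes. The same contrast in wild-type brain was used to separate these. In bulk tissue, fewer cells of a type and less RNA per cell cannot be told apart.

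Several of the 8 libraries stood apart from their group. The recovered depth was 6194563 to 13240014 reads in these libraries and 6194563 to 16021765 reads over the series. Hippocampus 1 was low in dentate genes: Prox1, the granule cell transcription factor, had 6.64, 17.7, 34.2 and 30.8 RPKM in hippocampus 1 to 4, against 8.23, 4.92, 4.54 and 5.05 RPKM in cortex 1 to 4. Its myelin was also low, with Mbp at 201, 447, 534 and 487 RPKM in hippocampus 1 to 4 and at 361, 192, 201 and 242 RPKM in cortex 1 to 4, so that cortex 1 was the high cortical library. Low dentate levels also occurred in the reference groups. The summed dentate list (9 genes) was 36.44 to 116.7 RPKM in wild-type hippocampus and 35.55 to 38.92 RPKM in wild-type cortex. In untreated 5xFAD it was 41.01 to 112.1 RPKM in hippocampus and 33.69 to 43.06 RPKM in cortex. The wild-type contrast thus also contains a hippocampal library within the cortical range. Mbp, Ttr, Xist and Ddx3y are named here and later after their values were seen.

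Hippocampus 3 and 4 carried transcripts of liver. Alb, which encodes serum albumin, had 0.952, 3.34, 634 and 112 RPKM in hippocampus 1 to 4, against 2.34, 0.0824, 0.300 and 0.113 RPKM in cortex 1 to 4, and the highest of the other 44 libraries had 39.4 RPKM. All 14 liver markers were called higher in hippocampus (median log2 difference 3.82, against 0.18 in wild type). Hippocampus 3 was highest in all 14, and none of the 14 had groups that did not overlap. In treated wild type 12 of the 14 were higher in hippocampus too (median 2.99), where 17.9% of all genes were higher. The summed liver level was 10.52 to 100.2 RPKM in treated wild-type hippocampus and 0.8016 to 1.919 RPKM in its cortex. In treated 5xFAD it was 3.325 to 1397 RPKM in hippocampus and 0.4256 to 10.15 RPKM in cortex. The same pair was high in thalamic genes, with Prkcd at 4.24, 8.17, 33.4 and 37.2 RPKM in hippocampus 1 to 4 and at 6.39, 3.88, 5.11 and 3.21 RPKM in cortex 1 to 4. Of 10 thalamic genes, 0 were called in treated 5xFAD (median 0.67). In treated wild type 6 were higher in hippocampus (median 1.07, with 17.9% of all genes higher). In untreated 5xFAD 6 were higher as well (median 1.52, with 3.34% of all genes higher). The X-inactivation transcript Xist had 46.6, 0.526, 5.45 and 0.165 RPKM in hippocampus 1 to 4, against 73.1, 1.31, 0.0879 and 0.0516 RPKM in cortex 1 to 4. The Y-linked Ddx3y had 0.637, 15.2, 13.2 and 16.2 RPKM in hippocampus 1 to 4, against 0.131, 18.0, 15.1 and 20.8 RPKM in cortex 1 to 4, so hippocampus 3 had both. Library 1 of each region stood apart with high Xist and low Ddx3y. Leaving out hippocampus 1 thus also removes the only hippocampal library with that pattern, while cortex 1 stays in. The counts of calls in the larger gene groups are therefore followed by those without hippocampus 3 and 4, a choice made with the liver genes known, and without hippocampus 1. How far these differences in tissue make-up enter each result was not tested.

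**Figure D1:**
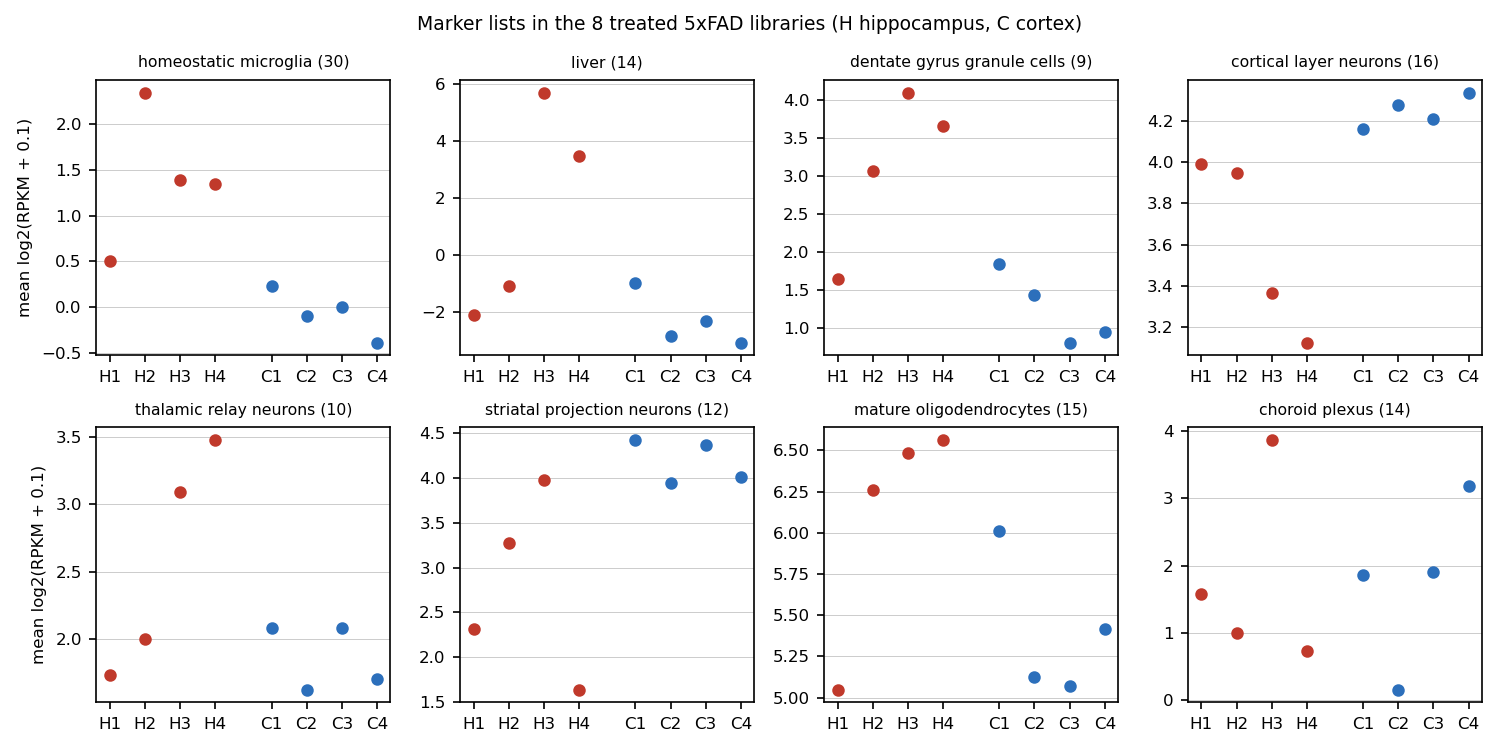
Mean log2(RPKM + 0.1) of 8 marker lists (number of genes in brackets) in each of the 8 libraries, hippocampus 1 to 4 (H, red) left of cortex 1 to 4 (C, blue); each point is a library and the vertical axes differ. Hippocampus 3 and 4 stand high in liver and thalamic genes, hippocampus 1 lies within the cortical range in dentate genes, and the 4 hippocampal libraries lie above the 4 cortical ones in homeostatic microglia genes.

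Between the treated regions, 866 genes were higher in hippocampus (5.42% of the 15975) and 377 were lower (2.36%) at a Benjamini-Hochberg adjusted p below 0.05. The median log2 difference over all genes was -0.00. In wild type 386 genes were higher (2.42%) and 193 were lower (1.21%), in treated wild type 2856 were higher and 2859 were lower (17.9% each), and in untreated 5xFAD 533 were higher (3.34%) and 404 were lower (2.53%). Groups did not overlap for 990 genes higher in treated 5xFAD hippocampus (6.2%) and for 844 lower (5.28%), among them 480 of the 866 and 232 of the 377. Hippocampus 3 and 4 were the highest pair of the 8 libraries for 485 of the 866 higher genes and for 2166 of all 15975.

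These counts moved with single libraries. Leaving out hippocampus 1 gave 1543 higher and 983 lower genes, hippocampus 3 gave 185 and 57, and hippocampus 4 gave 351 and 137. Leaving out cortex 2 gave 369 and 139, cortex 3 gave 531 and 196, and cortex 4 gave 385 and 152. Across all 8 single omissions 154 higher and 44 lower calls held. Without both hippocampus 3 and 4, 12 genes were higher (0.0751%) and 12 lower (0.0751%). List counts given below for an omission belong beside these counts and not beside the shares with all libraries. The wild-type counts moved as much: without wild-type hippocampus 1, 2, 3 and 4 in turn they were 71, 787, 100 and 78 higher and 53, 520, 41 and 60 lower, and without wild-type cortex 2, 3 and 4 they were 111, 127 and 96 higher and 53, 58 and 49 lower.

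Many of the regional genes of wild type were called in treated 5xFAD as well. Of the 866 higher genes 259 were also higher in wild type, which is 29.9% of the treated list and 67.1% of the wild-type list. Of the 377 lower genes 105 were also lower in wild type, 27.9% of the treated list and 54.4% of the wild-type list, and no gene was called in opposite directions. The 259 shared higher genes had a median log2 difference of 0.58 in treated 5xFAD and 0.56 in wild type, and the 105 shared lower genes had -0.62 in treated 5xFAD and -0.59 in wild type. A further part was called in treated wild type, so that 196 higher and 77 lower genes were called in neither group without the transgenes. Not being called there does not show that a difference was absent. The treated 5xFAD and the wild-type contrasts have no library in common, but they share the spread estimated over all 48 libraries.

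The difference between the contrasts was tested by itself. For the treated 5xFAD difference minus the wild-type difference, limma called 0 genes above 0 and 0 below (smallest adjusted p = 0.249), with 286 above and 151 below at an unadjusted p below 0.05. Against treated wild type it again called 0 and 0 (smallest adjusted p = 0.321), with 840 above and 465 below unadjusted. Both tests use the same treated 5xFAD libraries. With voom on recovered reads neither test made a call. Without hippocampus 1 of treated 5xFAD, 14 genes were above 0 against wild type, and 18 above and 1 below against treated wild type; leaving out cortex 2 gave 1 above against treated wild type.

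To mark likely myeloid genes, genes were taken that PLX5622 lowered in wild type, comparing treated with untreated wild type. The means compared leave out the treated 5xFAD libraries. The spread of each gene was estimated over all 48 libraries, so the treated 5xFAD libraries entered the choice through it. Whether all genes chosen in this way are myeloid was not tested. The drug lowered 258 genes in hippocampus (1.62%) and 167 in cortex (1.05%), and 142 were lower in both regions; 29 genes were higher in hippocampus (0.182%) and 3 in cortex (0.0188%). The 142 held 28 of 30 homeostatic and 2 of 30 plaque-induced microglia genes. In treated 5xFAD 65 of the 142 were higher in hippocampus and 0 lower, which is 45.8%, against 5.42% of all genes, and 136 were above 0. Their median log2 difference was 1.00 in treated 5xFAD, 0.03 in treated wild type, 0.27 in untreated 5xFAD and 0.05 in wild type. The medians of wild type and treated wild type come from the libraries that chose the set. No gene of the 142 was called between the regions of wild type, where 2.42% of all genes were higher and 1.21% lower. The wild-type libraries also chose the set, so nothing is read from that 0. In untreated 5xFAD 1 of the 142 was called, with 3.34% of all genes higher and 2.53% lower. Of the 65, 3 were also higher in treated wild type, where 17.9% of all genes were higher and whose libraries also chose the set.

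Among the 196 higher genes called in neither wild type nor treated wild type, 62 had been lowered by PLX5622, which is 31.6%, against 0.889% of all genes tested. None of the 259 higher genes shared with wild type, and none of the 77 lower genes called in neither, was in that set. With 0.889% of all genes in the set, few would be met in lists of this length. The set was also chosen on the wild-type and treated wild-type libraries that gave these calls, so nothing is read from these zeros. The 31.6% has the same limit and is not an independent result. Before the filter on these calls, 65 of the 866 higher genes were in the set. Hippocampus 2 was highest of the 4 hippocampal libraries in 114 of the 142 and hippocampus 1 lowest in 109. Without hippocampus 3 and 4, 4 of the 142 stayed called and the median was 0.95; without hippocampus 1, 93 were called and the median was 1.26. The count was 27 without hippocampus 2, 27 without hippocampus 3, 40 without cortex 2 and 35 without cortex 4, and 20 genes held through all 8 single omissions.

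**Figure D2:**
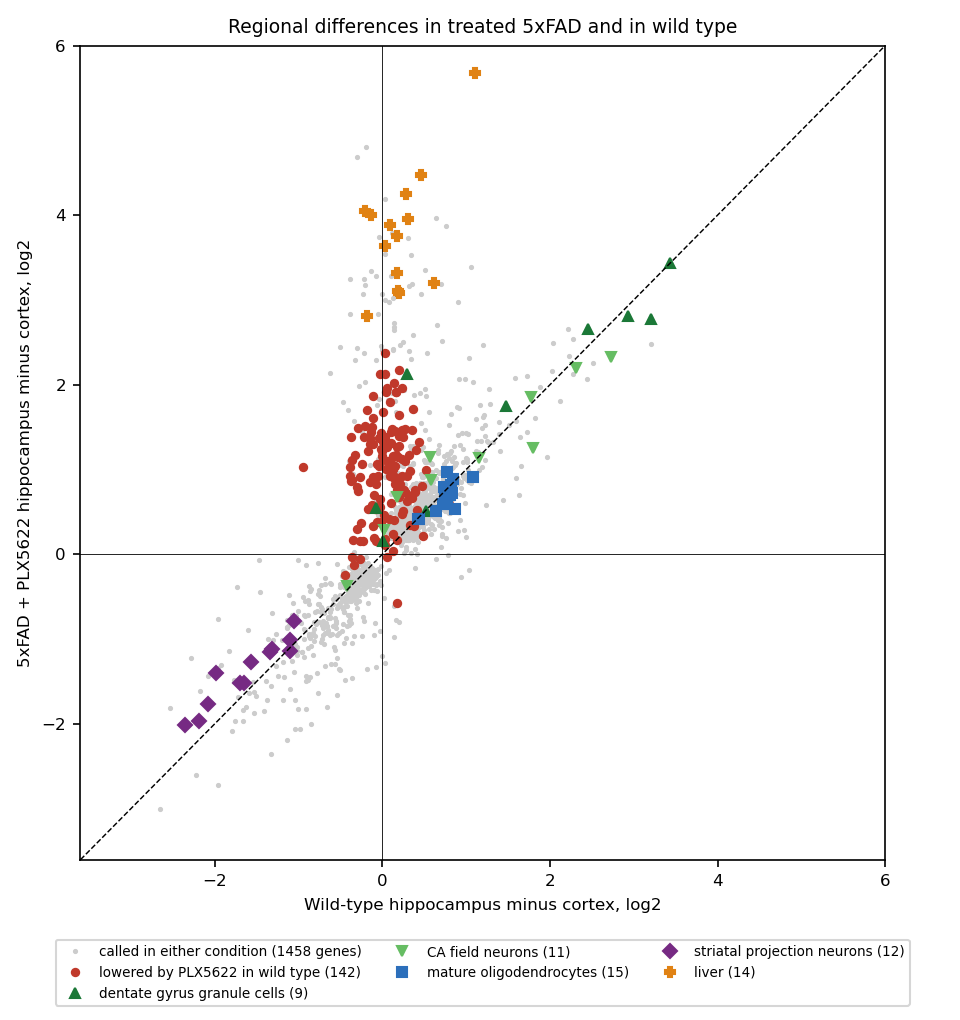
Log2 difference between hippocampus and cortex in 5xFAD + PLX5622 (vertical axis) against that in Wild-type (horizontal axis), with a dashed line of equality; grey points are genes called in either condition and coloured points are the members of 6 sets, called or not. Genes lowered by PLX5622 in wild type lie near 0 on the horizontal axis and mostly above 0 on the vertical axis (medians 0.05 and 1.00), while dentate, CA field, oligodendrocyte and striatal genes lie near the line.

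Homeostatic microglia genes were higher in treated hippocampus than in treated cortex. Of 30 tested, 17 were higher in treated 5xFAD hippocampus and 0 lower (against 5.42% and 2.36% of all genes), 29 were above 0, and the median log2 difference was 1.45, against 0.01 in wild type, 0.02 in treated wild type and 0.29 in untreated 5xFAD. None of the 30 was called between wild-type regions, where 2.42% of all genes were higher and 1.21% lower. In a list of this length, that 0 is near the share of all genes. In 17 of the 30 the groups did not overlap with hippocampus above, against 6.2% of all genes. For each, the exact permutation p was 0.0286 (two-sided), the smallest that 4 against 4 libraries allow. This p takes the libraries of the 2 regions as unpaired, which the labels do not settle. Csf1r, the receptor that PLX5622 blocks, had 3.23, 12.5, 7.09 and 4.66 RPKM in hippocampus 1 to 4, against 1.93, 1.78, 1.60 and 0.984 RPKM in cortex 1 to 4. Every hippocampal library was above every cortical one (log2 difference 1.92, adjusted p = 0.0284). In wild type Csf1r averaged 19.2 ± 0.912 RPKM in hippocampus and 18.7 ± 0.399 RPKM in cortex (SD, n = 4 each; log2 difference 0.04). The call for Csf1r was lost without hippocampus 2, 3 or 4 or cortex 2, 3 or 4.

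Selplg, the P-selectin glycoprotein ligand and the member with the largest log2 difference of the 30, had 1.17, 4.65, 2.20 and 1.72 RPKM in treated 5xFAD hippocampus 1 to 4, against 0.634, 0.323, 0.504 and 0.0887 RPKM in cortex 1 to 4. Its groups did not overlap, and its log2 difference was 2.37 ± 0.35 SE (adjusted p = 0.000129), against 0.04 in wild type. For the difference from wild type itself, Selplg had an adjusted p of 0.249 and did not pass.

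Cx3cr1, the fractalkine receptor, had 1.61, 6.70, 3.26 and 3.07 RPKM in hippocampus 1 to 4, against 1.05, 0.767, 0.680 and 0.341 RPKM in cortex 1 to 4 (log2 difference 2.12, adjusted p = 0.00582). Itgam, the CD11b integrin chain, had 0.815, 3.61, 1.44 and 1.41 RPKM in hippocampus 1 to 4, against 0.501, 0.144, 0.355 and 0.222 RPKM in cortex 1 to 4 (2.13, adjusted p = 0.00476). The groups of both were apart, with hippocampus 2 highest. Laptm5, a lysosomal membrane protein of blood-derived cells, had 1.66, 10.7, 5.84 and 4.94 RPKM in hippocampus 1 to 4, against 1.67, 1.40, 1.17 and 0.626 RPKM in cortex 1 to 4 (1.97, adjusted p = 0.00122). Here hippocampus 1 fell just under cortex 1. The UDP receptor P2ry6 (log2 difference 1.99, adjusted p = 0.0015) and the lectin Siglech (1.51, adjusted p = 0.00525) were, like Selplg, Cx3cr1, Itgam and Laptm5, among the 7 members whose call held through all 8 single omissions.

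Other members were called in the full set of libraries but not in each omission. Tmem119, a membrane protein specific to microglia in brain, had 1.05, 1.94, 1.27 and 1.05 RPKM in hippocampus 1 to 4, against 0.417, 0.485, 0.294 and 0.443 RPKM in cortex 1 to 4 (log2 difference 1.46, adjusted p = 0.0208; lost without hippocampus 2, hippocampus 3 or cortex 3). P2ry12, the ADP receptor, had 1.27, 4.44, 2.17 and 1.76 RPKM in hippocampus 1 to 4, against 1.00, 1.01, 0.674 and 0.494 RPKM in cortex 1 to 4 (1.39, adjusted p = 0.018; lost without hippocampus 2, hippocampus 3, cortex 3 or cortex 4). Both had hippocampal libraries above all cortical ones. Tyrobp, the signalling adaptor of TREM2, had 5.88, 28.7, 12.8 and 15.9 RPKM in hippocampus 1 to 4, against 3.67, 2.07, 4.46 and 2.23 RPKM in cortex 1 to 4 (2.17, adjusted p = 0.0401; lost without hippocampus 2, 3 or 4 or cortex 2, 3 or 4). The remaining called members were P2ry13, Gpr34, Olfml3, Cd53, Ikzf1 and Cd33, with log2 differences of 0.88 (Ikzf1) to 1.50 (Gpr34), each lost in at least 1 omission.

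Of the 13 members that did not pass, 12 were above 0. The complement gene C1qa had 6.69, 30.3, 12.95 and 13.3 RPKM in hippocampus 1 to 4, against 4.42, 2.80, 3.88 and 3.31 RPKM in cortex 1 to 4, without overlap (log2 difference 1.92, adjusted p = 0.106). Trem2, the lipid-sensing receptor of microglia, had a log2 difference of 1.44 (adjusted p = 0.0849), and the transcription factor Spi1, known as PU.1, had 1.22 (adjusted p = 0.0525). The exception was Sall1, a transcription factor of microglia. Sall1 had 2.31, 5.50, 4.62 and 3.81 RPKM in hippocampus 1 to 4, against 3.88, 7.33, 4.92 and 3.84 RPKM in cortex 1 to 4 (-0.31, adjusted p = 0.336), and PLX5622 did not lower it in both regions of wild type; P2ry6 was the only other such member.

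**Figure D3:**
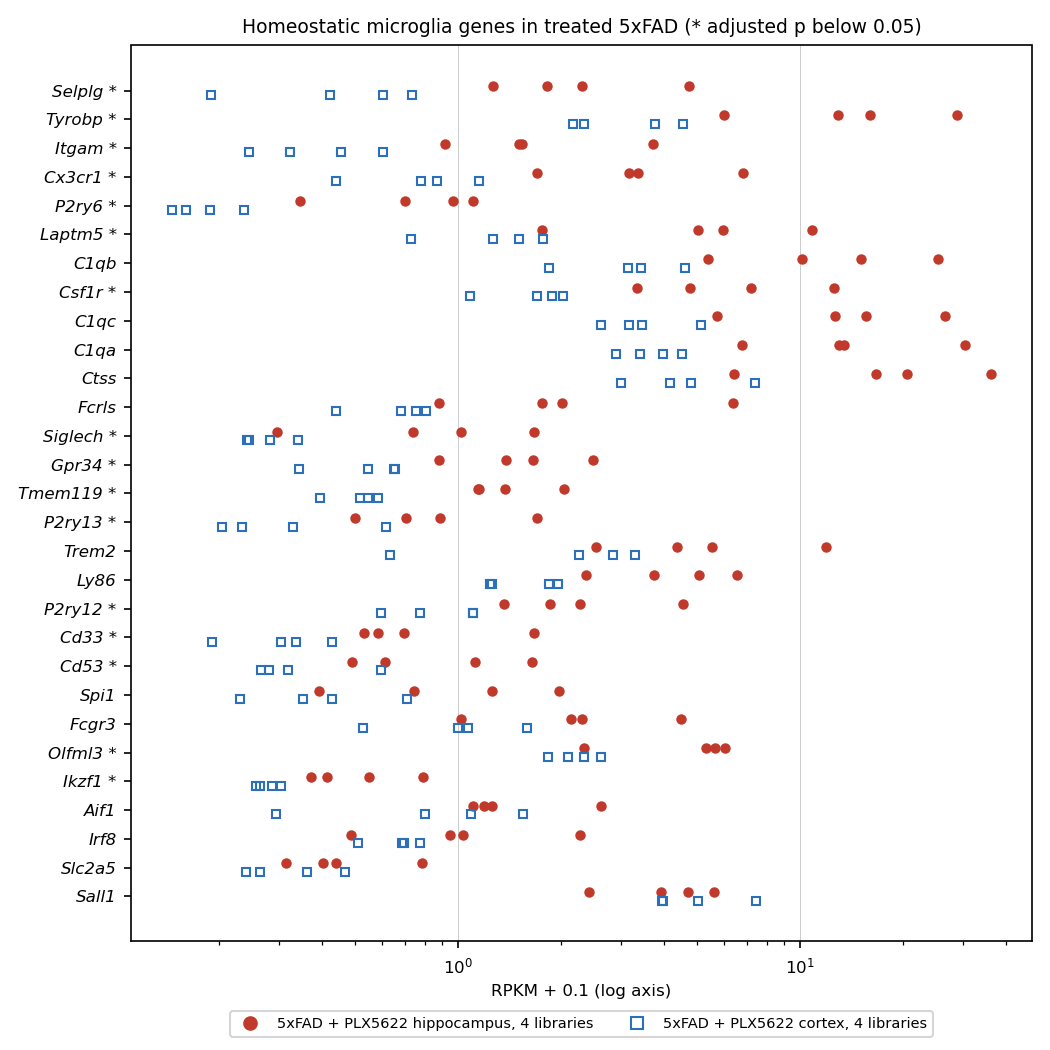
RPKM + 0.1 on a log axis of 29 of the 30 homeostatic microglia genes in the 4 hippocampal (filled red circles) and 4 cortical (open blue squares) libraries of 5xFAD + PLX5622, ordered by log2 difference; an asterisk marks an adjusted p below 0.05. Selplg is at the top (2.37) and Sall1, with overlapping groups, at the bottom (-0.31).

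Per library, the mean log2(RPKM + 0.1) of the 30 homeostatic microglia genes was 0.50, 2.35, 1.39 and 1.35 in treated 5xFAD hippocampus 1 to 4, against 0.23, -0.10, -0.00 and -0.39 in cortex 1 to 4, a difference of 1.46. Hippocampus 2 was highest in all 30 genes and hippocampus 1 lowest in 27. The difference was 1.49 without hippocampus 3 and 4 and 1.15 to 1.76 when each of the 8 libraries was left out. The summed level of the list was 72.8, 292.5, 149.8 and 153.8 RPKM in treated 5xFAD hippocampus 1 to 4, against 64.0, 51.9, 53.2 and 39.7 RPKM in cortex 1 to 4. Relative to untreated 5xFAD of the same region, the median member stood at 21.1% in hippocampus (12.5% to 51.8%) and 6.95% in cortex (2.98% to 58.9%), and the share was higher in hippocampus for 29 of 30. Relative to wild type it stood at 54.2% in hippocampus and 14.7% in cortex.

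The homeostatic count moved with the libraries used, and the median stayed above 0 in each setting given here. The 17 calls became 7 without hippocampus 2, 9 without hippocampus 3, 11 without hippocampus 4 and 10 without cortex 2, 3 or 4. Without both hippocampus 3 and 4, 2 members stayed called, Selplg among them, at a median of 1.54. Without hippocampus 1, 23 were called at a median of 1.73. An unadjusted p below 0.05 for the difference from wild type was reached by 20 members, and none passed adjustment.

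**Figure D4:**
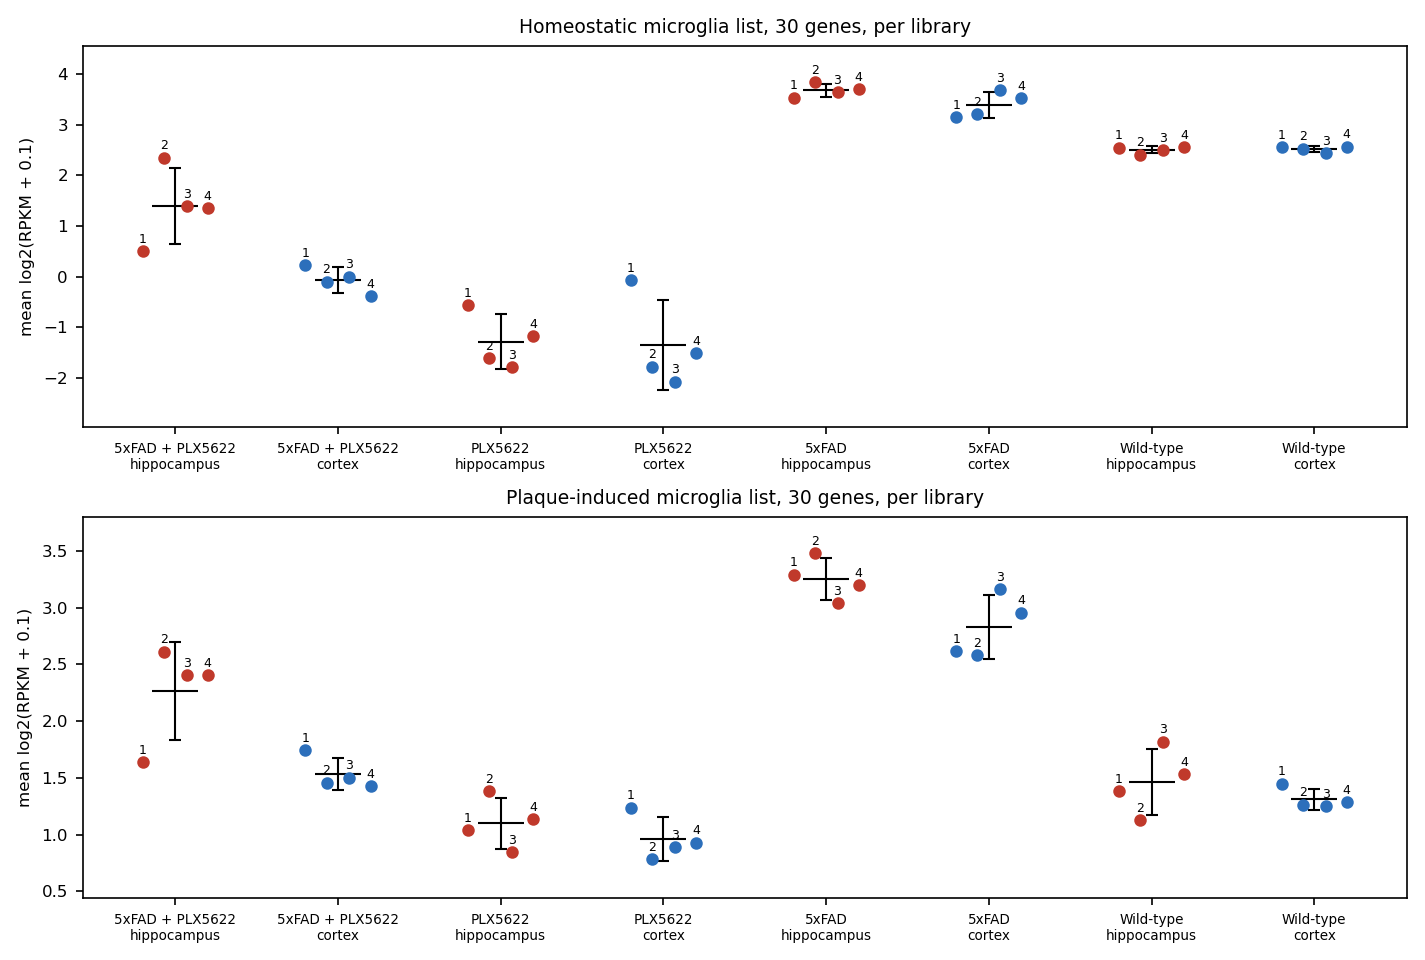
Mean log2(RPKM + 0.1) of the homeostatic (top) and plaque-induced (bottom) microglia lists, 30 genes each, in each library of 8 groups; numbers are library numbers, horizontal lines group means and bars ± SD (n = 4). In 5xFAD + PLX5622 the homeostatic mean lies between 0.50 and 2.35 in hippocampus and between -0.39 and 0.23 in cortex, while Wild-type hippocampus lies between 2.41 and 2.56 and Wild-type cortex between 2.44 and 2.57 (homeostatic microglia list).

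The promoters of the called microglial genes were read for the core of the PU.1 site, because these genes moved together and PU.1, the product of Spi1, drives much of the myeloid programme. Of the 28 genes called in the homeostatic or plaque-induced list, 21 had a promoter in the RefSeq table (GRCm38.p6, 250 bases before to 50 after the start), and Tmem119, P2ry6, Csf1r, Gpr34, Selplg and Tyrobp were among those with none there. The 6 letters GAGGAA, on either strand, stood in 8 of the 22 promoters of these genes (36.4%), against 28.3% of all 32851 promoters. The GC box GGGCGG, counted beside them, stood in 10 (45.5%), against 35.7%. Some promoters, those of Itgam, Grn and Cd68, held both. Printed 5′ to 3′ on the gene's strand, with GAGGAA or its complement TTCCTC in capitals, are the promoters of Itgam (3 matches, chr7:128062390-128062689, plus strand), Laptm5 (1 match 38 bases before the start, chr4:130913066-130913365, plus strand), P2ry13 (1 match 48 bases before the start, chr3:59210833-59211132, minus strand) and, as a called gene with no match, Cx3cr1 (chr9:120068247-120068546, minus strand). They are shown as a description of these windows only.
Itgam: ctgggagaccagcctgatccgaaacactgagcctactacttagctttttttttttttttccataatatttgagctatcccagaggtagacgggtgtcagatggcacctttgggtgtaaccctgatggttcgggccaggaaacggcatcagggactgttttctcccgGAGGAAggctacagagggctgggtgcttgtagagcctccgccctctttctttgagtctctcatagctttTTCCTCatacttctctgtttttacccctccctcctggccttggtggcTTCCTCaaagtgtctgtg
Laptm5: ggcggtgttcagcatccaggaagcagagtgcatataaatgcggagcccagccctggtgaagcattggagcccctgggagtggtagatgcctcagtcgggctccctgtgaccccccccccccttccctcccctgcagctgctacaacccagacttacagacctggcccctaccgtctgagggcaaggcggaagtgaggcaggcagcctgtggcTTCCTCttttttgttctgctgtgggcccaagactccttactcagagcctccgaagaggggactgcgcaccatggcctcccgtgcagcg
P2ry13: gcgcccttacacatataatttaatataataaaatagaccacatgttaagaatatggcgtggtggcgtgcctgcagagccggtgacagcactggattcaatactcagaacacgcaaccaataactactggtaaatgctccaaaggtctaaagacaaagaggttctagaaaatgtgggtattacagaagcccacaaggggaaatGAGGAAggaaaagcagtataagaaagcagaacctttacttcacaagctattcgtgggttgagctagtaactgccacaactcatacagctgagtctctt
Cx3cr1: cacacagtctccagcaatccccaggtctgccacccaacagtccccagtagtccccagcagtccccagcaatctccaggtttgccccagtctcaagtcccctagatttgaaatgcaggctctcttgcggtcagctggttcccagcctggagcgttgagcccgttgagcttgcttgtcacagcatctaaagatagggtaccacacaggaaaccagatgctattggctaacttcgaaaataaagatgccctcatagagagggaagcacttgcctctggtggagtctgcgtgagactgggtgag

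Plaque-induced microglia genes were above 0 in nearly the whole list. Of 30 tested, 11 were higher in treated 5xFAD hippocampus and 0 lower (against 5.42% and 2.36% of all genes), 29 were above 0 and 7 had groups apart with hippocampus above (against 6.2%). The median log2 difference was 0.57, against 0.16 in treated wild type, 0.40 in untreated 5xFAD and 0.16 in wild type. In hippocampus of treated wild type 8 of the 30 were higher and 2 lower, where 17.9% of all genes were higher and 17.9% lower. In untreated 5xFAD 2 were higher (against 3.34% of all genes), and in wild type 0 (against 2.42%). Cst7, a cysteine protease inhibitor induced beside plaques, had 2.29, 12.7, 6.27 and 10.3 RPKM in hippocampus 1 to 4, against 2.91, 1.02, 0.887 and 1.52 RPKM in cortex 1 to 4. Hippocampus 1 was below cortex 1, and the other hippocampal libraries were above all cortical ones (log2 difference 2.14, adjusted p = 0.0273). Wild-type libraries held 0.0791 to 0.447 RPKM of Cst7 in hippocampus and 0.102 to 0.891 RPKM in cortex. The integrin chain Itgax had 0.155, 0.907, 0.548 and 0.522 RPKM in hippocampus 1 to 4, against 0.281, 0.209, 0.152 and 0.0861 RPKM in cortex 1 to 4 (1.06, adjusted p = 0.0465).

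The lysosomal protein Cd68 had 4.71, 8.11, 4.93 and 6.73 RPKM in hippocampus 1 to 4, against 3.79, 2.34, 3.56 and 2.87 RPKM in cortex 1 to 4, without overlap (log2 difference 0.93, adjusted p = 0.0235). The protease Ctsd had 133, 208, 183 and 165 RPKM in hippocampus 1 to 4, against 130, 107, 113 and 114 RPKM in cortex 1 to 4 (0.55, adjusted p = 0.0377). The beta-glucan receptor Clec7a (1.61, adjusted p = 0.0649) and the lipid carrier Apoe (0.38, adjusted p = 0.0674) did not pass, and Spp1, which encodes osteopontin, was the member below 0 (-0.64, adjusted p = 0.334). None of the 11 calls held through all 8 omissions. The count was 1 without hippocampus 2 or cortex 2, 0 without hippocampus 3 or cortex 4, 2 without hippocampus 4, 4 without cortex 3, and 18 without hippocampus 1. Without hippocampus 3 and 4 it was 0, at a median of 0.49. Relative to untreated 5xFAD the median member stood at 49.8% in hippocampus (15.9% to 152%) and 47.1% in cortex (6.12% to 114%). The share was higher in hippocampus for 24 of 30, and the members differed widely. Cst7 stood at 31.7% in hippocampus and 8.98% in cortex, Clec7a at 20.8% and 6.12%, and Itgax at 15.9% and 7.03%. Apoe stood at 92.5% in hippocampus and 95.6% in cortex, and Cd63 at 103% and 96.5%.

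Of 11 genes of border macrophages and antigen presentation by MHC class II, 0 passed, while all 11 were above 0. The median log2 difference was 0.76, against 0.69 in untreated 5xFAD and 0.29 in wild type, and it was 0.19 without hippocampus 3 and 4. The mannose receptor Mrc1 had 0.0439, 0.0181, 0.477 and 0.198 RPKM in hippocampus 1 to 4, against 0.0490, 0.0316, 0.0493 and 0 RPKM in cortex 1 to 4. Hippocampus 3 was high in several of them, with Cd74, the invariant chain, at 0.880, 2.24, 6.63 and 1.69 RPKM in hippocampus 1 to 4 and at 0.737, 1.67, 0.804 and 2.20 RPKM in cortex 1 to 4. Of 12 monocyte and neutrophil genes listed, 2 could be tested. The monocyte receptor Ccr2 stayed between 0.0217 and 0.106 RPKM in hippocampus and between 0.0484 and 0.122 RPKM in cortex. Hp, which encodes haptoglobin and is also made by liver, passed (2.47, adjusted p = 0.0461). It had 0, 0.214, 15.1 and 3.90 RPKM in hippocampus 1 to 4, against 0.194, 0.125, 0.0650 and 0.0859 RPKM in cortex 1 to 4. Its difference was -0.26 without hippocampus 3 and 4. The source of the Hp transcripts was not tested. Of 4 lymphocyte and 4 red cell genes, 0 passed.

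Among the ligands and receptors of the CSF1 axis, 2 of 10 were higher in hippocampus, Csf1r and Csf1; the count was 0 without hippocampus 3 and 4 and 3 without hippocampus 1. Csf1, the ligand, had 7.41, 12.3, 12.7 and 14.8 RPKM in hippocampus 1 to 4, against 10.7, 6.93, 6.75 and 7.29 RPKM in cortex 1 to 4 (log2 difference 0.55, adjusted p = 0.0403). Its groups overlapped through hippocampus 1 and cortex 1, and the call was lost without hippocampus 2, 3 or 4 or cortex 2, 3 or 4. Il34, the other ligand, made by neurons, had 20.2, 14.6, 16.4 and 12.8 RPKM in hippocampus 1 to 4, against 15.7, 19.1, 18.3 and 18.2 RPKM in cortex 1 to 4 (-0.17, adjusted p = 0.482). The related receptors Kit (-0.11) and Flt3 (0.20) and the ligands Kitl (-0.93, adjusted p = 0.103) and Tgfb2 (0.94, adjusted p = 0.12) did not pass either.

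Of 16 complement genes, 5 were higher in hippocampus and 0 lower, with a median of 1.23, against 0.20 in wild type, and with 5.42% of all genes higher. Without hippocampus 3 and 4 the count was 0 and the median 0.60, and without hippocampus 1 they were 9 and 1.50. Leaving out cortex 2, hippocampus 3 or hippocampus 4 alone gave 3. Itgb2, the chain that pairs with CD11b in complement receptor 3, had 0.680, 2.48, 1.12 and 1.44 RPKM in hippocampus 1 to 4, against 0.759, 0.470, 0.397 and 0.363 RPKM in cortex 1 to 4 (log2 difference 1.26, adjusted p = 0.00509), and its call held through all 8 omissions. The receptor C3ar1 had 0.398, 1.16, 0.565 and 0.533 RPKM in hippocampus 1 to 4, against 0.263, 0.117, 0.142 and 0.295 RPKM in cortex 1 to 4 (1.28, adjusted p = 0.0115). C3 also passed (2.97, adjusted p = 0.00985), with 0.318, 1.27, 34.3 and 11.4 RPKM in hippocampus 1 to 4, against 1.47, 0.164, 0.290 and 0.270 RPKM in cortex 1 to 4. C3, which liver makes in quantity, was high in the same libraries as Alb. It differed by 0.62 without hippocampus 3 and 4 (adjusted p = 0.753), where nearly all calls of the full fit were lost. The source of the C3 transcripts was not tested. C4b, which astrocytes and oligodendrocytes can make, had 27.4, 55.7, 69.7 and 91.8 RPKM in hippocampus 1 to 4, against 57.0, 18.2, 15.97 and 21.0 RPKM in cortex 1 to 4 (1.20, adjusted p = 0.0334).

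Lysosomal genes moved little as a list: 5 of 20 were higher and 0 lower (against 5.42% and 2.36% of all genes), with a median of 0.20, including Ctsa, the protective protein cathepsin A (0.31, adjusted p = 0.0227). The count was 1 without hippocampus 3 and 4, 9 without hippocampus 1, 1 when hippocampus 2, hippocampus 3, cortex 2 or cortex 4 alone was left out, 2 without cortex 3 and 3 without hippocampus 4. Of 13 chemokines and cytokines 4 were higher, against 5.42% of all genes. This count was 0 without hippocampus 3 and 4, 6 without hippocampus 1, and 1 when hippocampus 2, hippocampus 3, hippocampus 4, cortex 2 or cortex 4 alone was left out. Csf3r, the receptor for G-CSF, had 0.365, 1.40, 0.627 and 0.779 RPKM in hippocampus 1 to 4, against 0.215, 0.125, 0.238 and 0.114 RPKM in cortex 1 to 4 (1.61, adjusted p = 0.0026), and its call held through all 8 omissions. Il33, an alarmin made by oligodendrocytes and astrocytes, was higher too (0.54, adjusted p = 0.0404), with cortex 1 at 38.6 RPKM within the hippocampal range. Of 14 interferon-response genes 0 passed (median 0.47, against 0.45 in wild type).

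The genes called without hippocampus 3 and 4, named after their values were seen, were of both kinds. Of the 12 higher genes, 6 were also higher in wild type and 4 had been lowered by PLX5622 in wild type, among them Selplg and Vsir. Vsir, the immune checkpoint receptor VISTA, had 1.54, 3.83, 2.10 and 1.81 RPKM in hippocampus 1 to 4, against 1.20, 0.834, 0.957 and 0.763 RPKM in cortex 1 to 4, without overlap. With all libraries its log2 difference was 1.15 (adjusted p = 0.00122), against 0.12 in wild type.

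The 6 higher genes of the regional kind were Kcnab2, Adgrb2, Lmtk3, Dagla, Tecpr1 and Plbd2. Kcnab2, an auxiliary subunit of voltage-gated potassium channels, had 142, 154, 165 and 176 RPKM in hippocampus 1 to 4, against 112, 100, 98.7 and 96.2 RPKM in cortex 1 to 4 (log2 difference 0.64, adjusted p = 2.02e-05), and 0.60 in wild type. Dagla, which makes the endocannabinoid 2-arachidonoylglycerol, had 37.0, 39.4, 51.7 and 44.3 RPKM in hippocampus 1 to 4, against 27.1, 23.9, 24.4 and 23.9 RPKM in cortex 1 to 4 (0.78, adjusted p = 2.02e-05), and 0.58 in wild type. In both, all 4 hippocampal libraries were above the cortical ones, including hippocampus 1. Bri3 and Trmt1 were the remaining 2 higher genes, and Trmt1 was not called with all libraries (0.24, adjusted p = 0.0528).

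Of the 12 lower genes, 6 were also lower in wild type. Camk2d, the delta chain of calcium/calmodulin kinase II, had 19.1, 13.6, 15.4 and 17.1 RPKM in hippocampus 1 to 4, against 29.7, 38.7, 38.4 and 38.3 RPKM in cortex 1 to 4 (log2 difference -1.15, adjusted p = 4.14e-06), and -0.95 in wild type. The oxytocin receptor Oxtr had 0.750, 0.610, 0.677 and 0.962 RPKM in hippocampus 1 to 4, against 1.62, 1.81, 1.69 and 1.62 RPKM in cortex 1 to 4 (-1.08, adjusted p = 0.00224), and -1.09 in wild type. Arhgap6, Ankfn1, Tmem35a and the gene with Entrez number 214604 made up the 6. Nr2f2, a transcription factor of interneurons from the caudal ganglionic eminence, had 2.40, 3.28, 4.10 and 6.16 RPKM in hippocampus 1 to 4, against 8.99, 6.77, 8.84 and 7.16 RPKM in cortex 1 to 4 (-1.05, adjusted p = 0.0162), and -0.36 in wild type, where it was not called. Zscan21, Meis1, Pdlim3, Samd3 and B130024G19Rik were likewise not called in wild type.

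**Figure D5:**
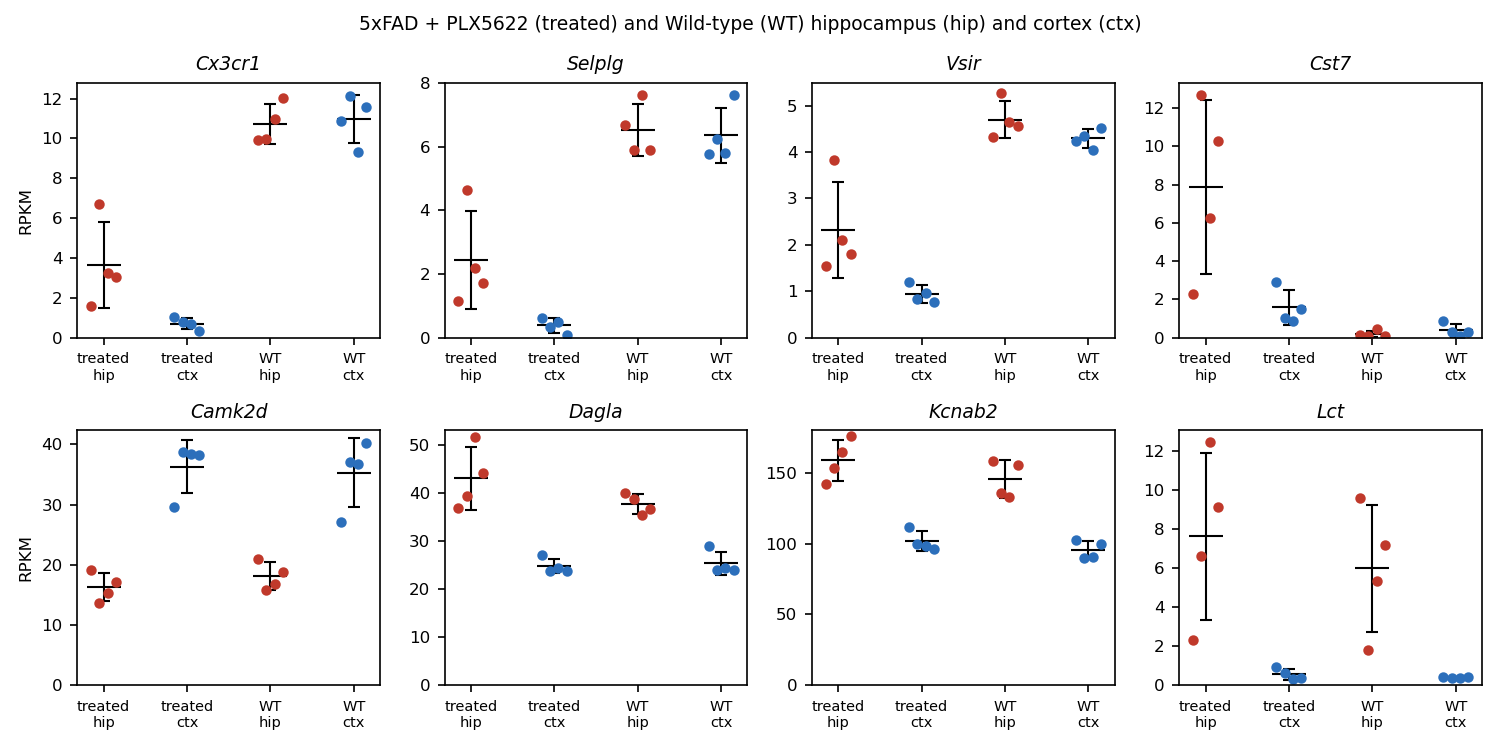
RPKM per library (points), group mean and ± SD (n = 4) of 8 genes in hippocampus (red) and cortex (blue) of 5xFAD + PLX5622 (treated) and Wild-type (WT). The regions of Wild-type overlap for Cx3cr1 and Selplg, whereas Camk2d, Dagla, Kcnab2 and Lct differ between regions in both conditions.

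Part of the genes of hippocampal neurons passed in each condition. Of 9 dentate granule cell genes, 5 were higher in treated 5xFAD hippocampus and 4 in wild-type hippocampus (against 5.42% and 2.42% of all genes), with a median log2 difference of 2.12 in treated 5xFAD and 1.47 in wild type. Lct, which encodes lactase and marks granule cells in mouse, had 2.32, 6.59, 12.4 and 9.12 RPKM in hippocampus 1 to 4, against 0.916, 0.601, 0.326 and 0.356 RPKM in cortex 1 to 4. Its groups were apart, and its difference was 3.43 in treated 5xFAD and 3.43 in wild type (adjusted p = 0.00299 and 0.0062). Prox1 differed by 1.75 (adjusted p = 0.00619; lost without hippocampus 3), against 1.47 in wild type. Of 11 CA field genes, 3 were higher in treated 5xFAD and 4 in wild type (medians 1.13 and 0.76), led by the scaffold gene Homer3 (1.86, adjusted p = 0.00631; lost without hippocampus 3). Without hippocampus 3 and 4 no dentate or CA gene was called, and their medians were 0.96 and 0.46; without hippocampus 1, 7 dentate and 7 CA genes were called. Leaving out hippocampus 3, hippocampus 4, cortex 3 and cortex 4 in turn gave 1, 2, 2 and 2 dentate calls. For the CA genes, leaving out hippocampus 3, hippocampus 4 and cortex 4 in turn gave 0, 1 and 1, and leaving out cortex 2 or cortex 3 gave 2.

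In the other direction, 1 of 16 cortical layer genes was lower in hippocampus (median -0.75, against -0.33 in wild type), Rasgrf2, a guanine nucleotide exchange factor of upper layers. Rasgrf2 had 28.5, 23.1, 17.3 and 16.5 RPKM in hippocampus 1 to 4, against 25.1, 34.9, 37.1 and 37.3 RPKM in cortex 1 to 4 (log2 difference -0.67, adjusted p = 0.00875). Of 14 GABAergic genes, 2 were lower, Gad1, the enzyme that makes GABA (-0.55, adjusted p = 0.015), and Reln, which encodes reelin (-0.64, adjusted p = 0.0261). Reln had 11.7, 13.8, 12.8 and 10.9 RPKM in hippocampus 1 to 4, against 15.9, 20.9, 20.8 and 19.3 RPKM in cortex 1 to 4, without overlap. The 12 striatal genes had a median of -1.33, against -1.61 in wild type, and 0 passed. Of 8 genes of newborn neurons and dividing cells, Dcx, the microtubule protein of young neurons, was lower (-1.19, adjusted p = 0.0216), against -0.83 in wild type. None of these 4 calls held without hippocampus 3 and 4, and without hippocampus 1, 5 cortical layer, 4 GABAergic and 1 newborn or dividing cell gene were lower. With all libraries, when 2.36% of all genes were lower, the lists with a call held only 1 or 2 such genes. Without hippocampus 1, 983 of all 15975 genes were lower.

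Part of the myelin genes passed in each condition. Of 15 genes of mature oligodendrocytes, 7 were higher in treated 5xFAD hippocampus and 8 in wild-type hippocampus (median log2 difference 0.70, against 0.78 in wild type), with 5.42% and 2.42% of all genes higher. In treated 5xFAD none of the 15 had groups apart, and hippocampus 1 was the lowest hippocampal library in all 15. The count was 0 and the median 0.26 without hippocampus 3 and 4, and 14 and 1.04 without hippocampus 1. It was also 0 when hippocampus 3, hippocampus 4, cortex 2 or cortex 3 alone was left out, 1 without cortex 4 and 2 without hippocampus 2. Mag, the myelin-associated glycoprotein, had 48.3, 100, 115 and 118 RPKM in hippocampus 1 to 4, against 83.7, 40.8, 42.8 and 47.1 RPKM in cortex 1 to 4 (0.81, adjusted p = 0.019), and 0.83 in wild type. The treated groups overlapped through hippocampus 1 and cortex 1, whereas wild-type hippocampus had 69.8 to 72.2 RPKM and wild-type cortex 34.0 to 44.5 RPKM. Of 12 oligodendrocyte precursor genes, Sox10 and Olig1, transcription factors of the lineage, were higher (0.71, adjusted p = 0.0235, and 0.61, adjusted p = 0.0257), and neither call held when any library other than hippocampus 1 or cortex 1 was left out.

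Of 15 astrocyte genes 0 passed (median 0.08, against 0.08 in wild type). Of 13 reactive astrocyte genes 3 were higher (median 0.57, against 0.38 in wild type, with 5.42% of all genes higher): Gfap, the intermediate filament of astrocytes, Serpina3n, a protease inhibitor, and C4b. Gfap had 215, 261, 280 and 431 RPKM in hippocampus 1 to 4, against 323, 123, 92.3 and 119 RPKM in cortex 1 to 4 (log2 difference 0.99, adjusted p = 0.048), and 1.15 in wild type. Serpina3n had 36.0, 42.6, 54.1 and 86.5 RPKM in hippocampus 1 to 4, against 54.8, 18.7, 11.9 and 11.6 RPKM in cortex 1 to 4 (1.41, adjusted p = 0.0135). In all 3, cortex 1 lay within the hippocampal range. The count was 0 and the median 0.12 without hippocampus 3 and 4, and 5 and 1.05 without hippocampus 1. It was 0 when hippocampus 3, hippocampus 4, cortex 3 or cortex 4 alone was left out, and 1 without hippocampus 2 or cortex 2. Of 12 endothelial, 10 mural, 11 meningeal, 14 choroid plexus and 8 ependymal genes, 0 passed. The choroid plexus transcript Ttr had 224, 133, 1376 and 62.5 RPKM in hippocampus 1 to 4, against 236, 45.8, 278 and 743 RPKM in cortex 1 to 4, with overlapping groups.

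Receptors and channels gave a few calls. The AMPA receptor subunit Gria1 had 111, 179, 196 and 233 RPKM in hippocampus 1 to 4, against 117, 114, 107 and 88.1 RPKM in cortex 1 to 4 (log2 difference 0.71, adjusted p = 0.0178, against 0.57 in wild type). With the kainate receptor Grik4 (0.77, adjusted p = 0.0125, against 0.76) and the NMDA receptor Grin2a (0.60, adjusted p = 0.0351, against 0.50) it made 3 of 15 glutamate receptor genes higher, against 5.42% of all genes. This count was 0 without hippocampus 3 and 4, 3 without hippocampus 1, and 0 when hippocampus 3, hippocampus 4 or cortex 4 alone was left out. Of 18 potassium channel genes, 2 were higher, with 5.42% of all genes higher. Of 12 GABA-A receptor genes, Gabra3 was lower (-0.96, adjusted p = 0.0196, against -0.88 in wild type). Of 14 immediate early genes 0 passed.

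App and Thy1 were not called between the treated regions. Reads from the human transgenes and from the mouse genes were not separated in these values. App, the amyloid precursor protein, had 1347, 1059, 673 and 967 RPKM in hippocampus 1 to 4, against 1089, 864, 800.0 and 861 RPKM in cortex 1 to 4 (log2 difference 0.13, adjusted p = 0.612). Thy1, whose promoter drives the transgenes, had 1846, 1379, 727 and 1209 RPKM in hippocampus 1 to 4, against 1307, 921, 806 and 892 RPKM in cortex 1 to 4 (0.34, adjusted p = 0.295). In both genes library 1 was the highest of its region and hippocampus 3 the lowest of the hippocampal libraries. Wild-type libraries held 446 to 524 RPKM of App in hippocampus and 459 to 518 RPKM in cortex. Of 22 genes of APP processing and clearance 0 passed.

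Ranked by size among called genes with groups apart and a mean of at least 1 RPKM in a region, the 15 highest were liver, microglial and regional genes. Cyp2c29, Serpinc1, Itih4, Ces1d and Acaa1b, genes strongly expressed in liver, were high in hippocampus 3 and 4; Itih4 had 0.0990, 0.122, 8.77 and 2.70 RPKM in hippocampus 1 to 4. Selplg, Tyrobp, Itgam and Cx3cr1 were microglial. Lct, Lefty1, Il16, 6330420H09Rik, Cabp7 and Syna had differences of 2.22 to 3.43 in wild type too; the calcium-binding protein gene Cabp7 had 19.1, 38.2, 84.2 and 69.5 RPKM in hippocampus 1 to 4, against 16.5, 9.39, 9.01 and 5.62 RPKM in cortex 1 to 4 (log2 difference 2.26, adjusted p = 0.00619). The 15 lowest, among them Trh, Oprk1, Abi3bp, Sema3a and Cartpt, were below 0 in wild type as well. Trh, thyrotropin-releasing hormone, had 0.789, 0.905, 0.240 and 0.346 RPKM in hippocampus 1 to 4, against 3.33, 4.75, 6.84 and 2.09 RPKM in cortex 1 to 4 (-2.72, adjusted p = 0.00554), and -1.96 in wild type. The kappa opioid receptor Oprk1 differed by -1.96 (adjusted p = 0.0107), and by -1.76 in wild type. The calls for Trh and Abi3bp held through all 8 omissions.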

How the data were processed

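RNA was sequenced as 50 base single reads from dissected hippocampus, cortex and thalamus with striatum, 4 libraries in each of 12 groups. Per the labels, STAR, featureCounts, edgeR, limma and the mm10 build were the tools of the authors, with no versions given, and they deposited RPKM values per gene in 1 table. No column of per-sample values was left unmapped. The labels and the study's methods name different library kits. Dates replace 24 symbols in it, 148 genes have no symbol, and 15550 Entrez numbers matched the reference table, used for chromosomes and names.

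RPKM are not counts, so limma 3.58.1 (R 4.3.3) modelled log2(RPKM + 0.1), with group means over all 48 libraries, empirical Bayes with a mean-variance trend, and Benjamini-Hochberg adjustment within each contrast at 0.05. Fold changes on this scale understate those of low genes. For single genes, all ways of dividing the 8 libraries between the regions gave an exact permutation p, two-sided. Tables and figures used Python 3.11.15, numpy 2.4.6, pandas 2.3.3 and matplotlib 3.10.9. Whole reads were recovered from the RPKM steps for 16013 of 16014 genes (99.99%, within 0.05 reads), which gave the depth. RPKM are scaled to each library's total, so a library rich in foreign transcripts lowers its other genes, and 50 base reads can be shared between close paralogs.

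Of 485 genes in 36 marker and pathway lists, 447 were in the table. The members, lists and tests were chosen with earlier results of these data known. The genes named are those the study names for this experiment, all members of the microglia, border macrophage, CSF1 axis and transgene lists, up to 4 members with the smallest p of each other list, and up to 15 genes per direction with the largest change among called genes with groups apart and a mean of at least 1 RPKM, and likewise up to 10 for the difference from wild type, where none was called. The fit was checked on simulated data. Settings varied were the pseudocount, the filter, the scaling, the libraries fitted, the empirical Bayes step, the replicate number as a block, voom on recovered reads, and libraries left out. Thalamus entered the fit only. Some genes are not reported here by name; they remain in the counts and medians of their lists.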

Additional observations from a re-analysis of the deposited data

Results flagged for a closer look

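In 5 of 70 sets of 4 libraries (a marker list in treated 5xFAD hippocampus or cortex), 1 library lay far from the other 3, by the share of the whole range taken up by its gap to the nearest; chance alone gives about 1 in 20. The values are means of log2(RPKM + 0.1) over a list. Hippocampus 1 stood low in 2 lists, the CSF1 axis at 2.31 (gap 0.841 of the range) and oligodendrocyte precursors at 2.54 (0.923). Cortex 1 stood high in complement genes at 0.66 (0.903) and in lysosomal genes at 4.64 (0.99). Cortex 4 stood high in immediate early genes at 4.15 (0.838), with Egr1 at 51.8, 51.9, 61.0 and 117 RPKM in cortex 1 to 4. None of the 14 immediate early genes passed the regional test with limma.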

How the results depend on the processing

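Of the counts in treated 5xFAD, 866 higher and 377 lower genes, voom on recovered reads gave 325 higher, and a fit of the 8 treated libraries alone gave 108 higher and 74 lower. Without hippocampus 3 and 4 they were 12 and 12, without the 3 hippocampal libraries low in dentate genes 1624 and 1107, and without hippocampus 1 and cortex 1 1659 and 970; the last 2 settings were chosen after seeing the data. Over single omissions they ranged over 185 to 1543 higher and 57 to 983 lower. In wild type the counts were 198 higher in a fit of the 16 libraries compared, 149 higher and 112 lower with voom, 995 and 703 without the low-dentate libraries, and 71 to 787 and 41 to 520 over single omissions. For the difference from wild type, 1 gene was above 0 without the low-dentate libraries, 9 without hippocampus 1 and cortex 1, and 0 to 14 over omissions; for that from treated wild type, 13, 16 (and 1 below) and 0 to 18 above and 0 to 1 below. The 142 genes lowered by PLX5622 were 69 among genes with a mean of at least 1 RPKM, where fewer genes were tested. Homeostatic calls were 6 with a pseudocount of 0.01, 1 with the 8 libraries alone, 2 without hippocampus 3 and 4, and 7 to 23 over omissions. Plaque-induced calls were 7 with a pseudocount of 0.01, 7 with the 16 libraries, 0 with the 8 libraries, 0 with voom, 0 without hippocampus 3 and 4, 18 without the low-dentate libraries, 18 without hippocampus 1 and cortex 1, and 0 to 18 over omissions. Hp reversed to -0.26 without hippocampus 3 and 4. The 249 named genes include many that were not called with all libraries. Among them, leaving out hippocampus 3 and 4 ended 90 calls, and a fit of the 8 treated libraries alone ended 89. Leaving out hippocampus 3 alone ended 74 and hippocampus 4 alone 61. The number was 53 with voom, 26 with a pseudocount of 0.01, 1 with rescaled libraries and 0 with robust empirical Bayes. Unless a fit had fewer libraries or genes, the cause was not tested.

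Same-numbered hippocampus and cortex libraries of treated 5xFAD correlated at -0.122, 0.146, -0.051 and -0.033 in their deviations. Of the 4 numbers, 1 correlated best with itself. The main fit and the exact permutation p took the libraries as unpaired. Weak correlations do not show that same-numbered libraries came from different mice, so pairing stays possible. As a hint from the data and not from the design, Hbb-bs had 25.6, 35.8, 24.4 and 98.6 RPKM in hippocampus 1 to 4, against 26.5, 37.7, 25.2 and 89.5 RPKM in cortex 1 to 4, and Xist was highest in library 1 of both regions. With the number as a replicate block, 841 genes were higher and 323 lower, in wild type 281 and 99, and 25 homeostatic and 9 plaque-induced genes were higher. edgeR on recovered reads was not run, because the deposited unit is RPKM.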

Other observations

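Treated wild type served as a reference and, beside wild type, chose the 142 genes lowered by PLX5622. Its library 1 stood above the others of both regions in the homeostatic microglia list. The mean log2(RPKM + 0.1) of library 1 was -0.56 in hippocampus and -0.07 in cortex. The other libraries had -1.79 to -1.17 in hippocampus and -2.07 to -1.50 in cortex. How far library 1 enters the choice of the 142 was not tested.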
